A study of Danio rerio with 9 samples.

Results

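Rhombomere 4 (r4) of zebrafish embryos injected with a Hoxb1a morpholino was compared with rhombomere 2 (r2) of untreated embryos, to see which r4 identity is kept when Hoxb1a is lost. The arrays were chosen by sample title: 3 of Hoxb1a-deficient r4 (replicates 1, 2 and 3) and 3 of normal r2 (replicates 2, 3a and 3b), 6 of the 9 arrays of the series. The other 3 arrays, of normal r4 from untreated embryos, share the estimate of spread and are set beside the comparison. Per the labels the embryos came from an islet-1 GFP transgenic strain, in which islet-1 regulatory sequence drives GFP, and were dissected at 19 to 20 hours post fertilization. For r2 replicate 2 the strain and stage come from its treatment protocol alone, and the tissue label of Hoxb1a-deficient r4 replicate 3 names the segment but not the deficiency, which its title and treatment protocol give. Each sample was a thick transverse slice around the rhombomere, pooled from 8 to 10 embryos, whose RNA was amplified and labelled with biotin. The sources used here give neither the kind of morpholino nor any control injection of the untreated embryos. Experiment 1 held no r2 sample, experiment 2 held 1 and experiment 3 held 2 (3a and 3b), so that n = 3 for r2 stands for 2 experiments.

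Rhombomeres are the repeated segments of the embryonic hindbrain, and the combination of Hox transcription factors in each sets which neurons form there. In zebrafish hoxb1a marks r4, where facial motor neurons are born before they migrate to more posterior segments, while hoxa2b is the Hox gene expressed as far forward as r2. The r2 segment lies closer to the isthmus, the Fgf-secreting boundary between midbrain and hindbrain, and the otic vesicle, the future inner ear, lies beside the hindbrain behind r4.

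Values are multiples of the array median, since every deposited column has a median of 1.00 to 1.01, and differences are on the log2 scale. A probe below 1 is among the dimmer probes of its array, where signal was not separated from background. The size of a fold against such a level is therefore uncertain. The upper quartile was 6.15, 4.03 and 3.67 on the Hoxb1a-deficient r4 arrays, against 3.64, 4.75 and 4.29 on the normal r2 arrays. Samples 3a and 3b of r2 correlated with r = 0.991 across probes. The arrays of experiment 1, which held no r2 sample, stood apart: Hoxb1a-deficient r4 replicate 1 correlated with normal r4 replicate 1 at r = 0.991 and with the 7 arrays of experiments 2 and 3 at 0.936 to 0.954, while those 7 correlated with each other at 0.963 or more. Nothing in the labels says that samples of a group came from separate clutches, so p-values measure the spread between these samples, and the number of arrays limits the precision.

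In Hoxb1a-deficient r4, 62 of 16227 probes rose and 28 fell relative to normal r2 (limma, adjusted p under 0.05), which are 0.382% and 0.173% of the probes and 0.555% together. The 90 probes held 48 named genes, 38 that rose and 10 that fell, led by genes of the otic placode and of epithelia among the increases and by genes of the midbrain and isthmus among the decreases. The probes that rose had a median log2 difference of 2.32 (range 1.14 to 5.59) and those that fell of -1.90 (range -4.83 to -1.26), beside -0.07 for all probes. The difference of 5.59 belongs to unnamed probe 15711, which read that array's highest value on Hoxb1a-deficient r4 replicate 3 and has only a lower bound there. An unadjusted p under 0.05 was reached by 769 probes. After quantile normalization 109 rose and 77 fell, and on the log2(value + 1) scale 22 rose and 19 fell. The groups did not overlap for any of the 90, as was so for 10.5% of all probes. Each of the 90 therefore had the same sign in experiment 2 and against both r2 samples of experiment 3. The lack of overlap fixes this, so it is not a separate check. Of the 62, 17 were at or below the array median on every r2 array, and of the 28, 9 were at or below it on every Hoxb1a-deficient r4 array.

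These 90 probes were then read in normal r4. The differences of both r4 groups from r2 share the r2 arrays, so the values are set side by side and their likeness is not a result of its own. Normal r4 against r2 had 0.579% of probes past the test. The 62 probes that rose had a median difference from r2 of 2.32 in Hoxb1a-deficient r4 and of 2.39 in normal r4. For the 28 that fell the medians were -1.90 in Hoxb1a-deficient r4 and -1.81 in normal r4. Measured directly, Hoxb1a-deficient r4 minus normal r4 had a median of -0.03 over the 62 (range -0.78 to 1.43) and of -0.11 over the 28 (range -1.90 to 0.21). In experiments 1, 2 and 3 the median over the 62 was -0.33, 0.46 and -0.35, so its sign differed between experiments, and over the 28 it was -0.20, 0.02 and -0.14. Of the 90 probes 0 passed limma's test between the r4 groups, in which 0 of all 16227 probes passed and 82 had an unadjusted p under 0.05. A fit with a replicate block for the experiment called 2 probes there. A missed threshold with 3 arrays a group does not show that the r4 groups were alike.

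**Figure D1:**
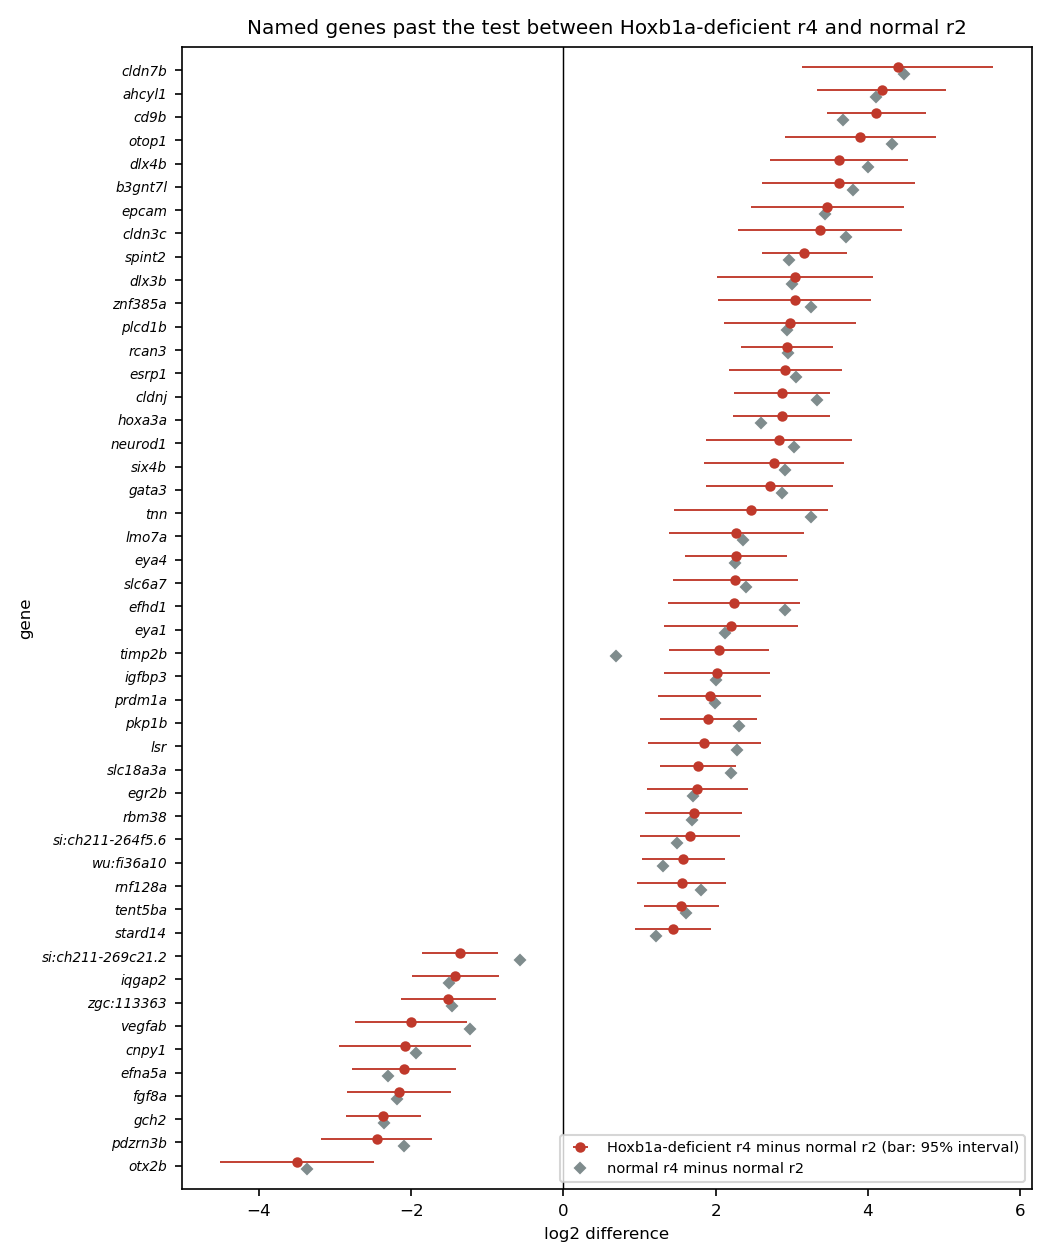
Log2 differences from normal r2 of the named genes past the test, 1 gene per row, for Hoxb1a-deficient r4 (circles, with 95% intervals) and normal r4 (diamonds), from 3 arrays a group. Both sets of points use the same r2 arrays. For timp2b the points stand apart, at 2.05 in Hoxb1a-deficient r4 and 0.69 in normal r4.

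The transcript of hoxb1a was above r2 in the Hoxb1a-deficient tissue. It measured 3.17, 1.52 and 1.51 in Hoxb1a-deficient r4, 3.02, 2.42 and 1.88 in normal r4 and 0.774, 0.590 and 0.567 in normal r2. Every Hoxb1a-deficient r4 array stood above every r2 array, and all r2 arrays were below the array median. The log2 difference from r2 was 1.60 (95% interval 0.89 to 2.32, adjusted p = 0.077), which missed the threshold, and with the replicate block it passed (1.3, adjusted p = 0.00425). A probe for the transcript does not check a morpholino that blocks translation, so the knockdown itself was not measured here.

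The planar polarity gene prickle1b, which facial motor neurons need to migrate, lay near its r2 level in Hoxb1a-deficient r4. It measured 9.61, 8.72 and 9.30 in Hoxb1a-deficient r4, 21.3, 13.7 and 21.1 in normal r4 and 6.24, 10.1 and 6.72 in normal r2. Hoxb1a-deficient r4 and r2 overlapped, and all normal r4 arrays lay above both. Its difference from r2 was 0.30 (95% interval -0.28 to 0.87, adjusted p = 0.996) in Hoxb1a-deficient r4, beside 1.29 for normal r4, and Hoxb1a-deficient r4 minus normal r4 was -0.99 (95% interval -1.57 to -0.42). The chemokine gene cxcl12b, picked after its values were seen, measured 6.1, 6.79 and 4.34 in Hoxb1a-deficient r4, 2.11, 2.87 and 2.07 in normal r4 and 4.92, 6.74 and 6.79 in normal r2. Here too Hoxb1a-deficient r4 overlapped with r2, while normal r4 lay below both. The difference from r2 was -0.11 (95% interval -0.67 to 0.46, adjusted p = 0.996), beside -1.39 for normal r4. Neither gene passed limma's test between the r4 groups (adjusted p = 1.00 each).

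**Figure D2:**
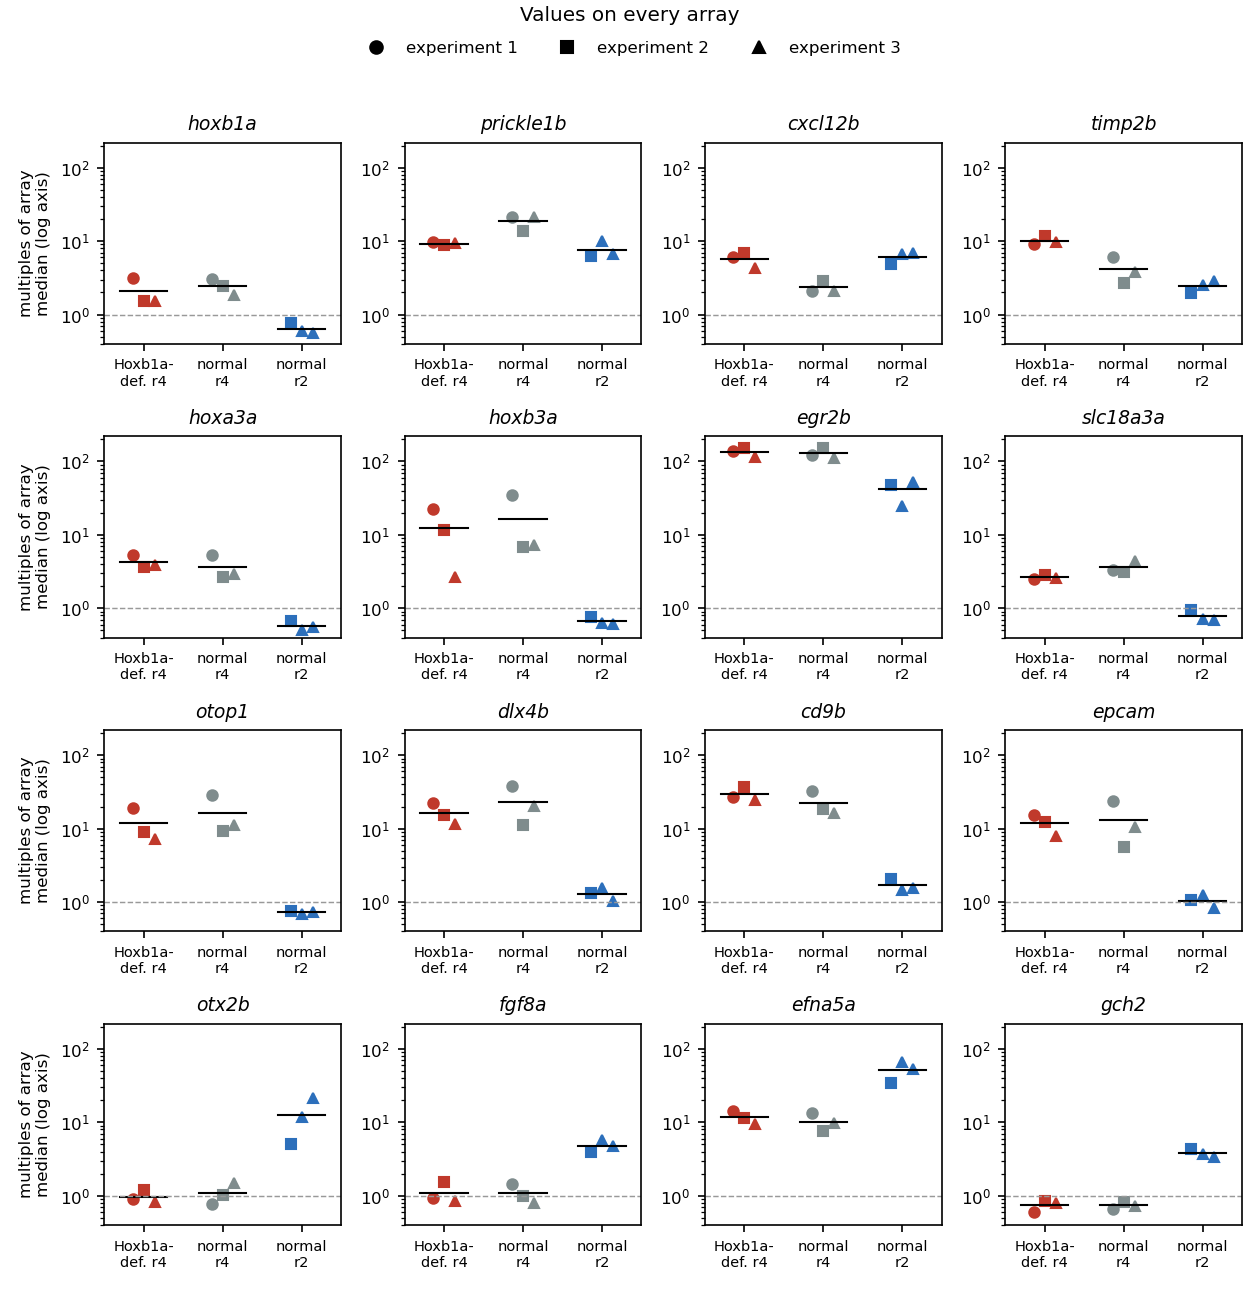
Values on every array in multiples of the array median (log axis), 1 panel per gene, with Hoxb1a-deficient r4 on the left, normal r4 in the middle and normal r2 on the right, and symbols for the 3 experiments. Bars are group means and the dashed line is the array median of 1. For otop1 both r4 groups lie above r2, while prickle1b in Hoxb1a-deficient r4 overlaps with r2.

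Of the 5 measured genes of Hox groups 1 and 2, 0 passed, and hoxb1a alone passed with the block. Beside this list and those below stand the shares over all probes. Of all probes 0.382% rose and 0.173% fell, and with the block 0.875% rose and 1.34% fell. The gene hoxa2b, picked after its values were seen, measured 26.4, 13.3 and 6.38 in Hoxb1a-deficient r4, 30.2, 19.9 and 12.2 in normal r4 and 12.8, 5.86 and 7.22 in normal r2. Its values in Hoxb1a-deficient r4 overlapped with r2, with a difference of 0.68 (95% interval -0.45 to 1.82, adjusted p = 0.996). For hoxb2a, expressed behind r2, the difference was 1.06 (95% interval 0.17 to 1.96, adjusted p = 0.855).

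Hox group 3 genes are expressed in r5 and more posterior segments. Of 4 measured, hoxa3a rose and 3 did not pass, and 2 passed without Hoxb1a-deficient r4 replicate 3. It measured 5.25, 3.65 and 3.83 in Hoxb1a-deficient r4, 5.28, 2.67 and 2.95 in normal r4 and 0.668, 0.510 and 0.556 in normal r2, with all r2 arrays below the median and no overlap. The difference was 2.87 ± 0.29 (SE, adjusted p = 0.00152). The gene hoxb3a measured 22.6, 11.8 and 2.69 in Hoxb1a-deficient r4, 34.9, 6.76 and 7.29 in normal r4 and 0.752, 0.626 and 0.620 in normal r2. Its Hoxb1a-deficient r4 values differed widely among themselves and none overlapped with r2. The difference of 3.75 ± 0.76 (SE, adjusted p = 0.0783) missed the threshold and passed with the block (2.91, adjusted p = 0.00463), and a second, dimmer hoxb3a probe differed by -0.10. Of 37 genes of groups 4 to 13, 5 were above the array median in either group, and 0 passed in either fit. Of 13 genes for the Hox cofactors Pbx, Meis and Pknox, which bind DNA together with Hox proteins, 0 passed in either fit.

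Among 11 genes of r3, r5 and r6 1 rose: egr2b (krox20), the zinc finger factor of r3 and r5. It measured 139, 153 and 113 in Hoxb1a-deficient r4, 124, 152 and 112 in normal r4 and 47.8, 24.7 and 52.3 in normal r2. Both r4 groups lay above r2, where it was still far above the array median. The difference was 1.76 ± 0.30 (SE, adjusted p = 0.0303), and it missed the threshold whichever 1 of the 6 arrays was left out (adjusted p = 0.0670 to 0.164). The third values of Hoxb1a-deficient r4 and of normal r4 stood next to the highest values of those arrays, 114 and 112. A difference between the r4 groups could be missed there. Of 15 genes listed for r4, gata3 rose and fgf8a fell, and with the block hoxb1a and sfrp2 rose too. The count of 2 was 3 without Hoxb1a-deficient r4 replicate 1, 1 without its replicate 2 or 3 and 0 without normal r2 replicate 3a or 3b. The gene sfrp2, for a secreted modulator of Wnt signalling, measured 1.84, 4.53 and 5.78 in Hoxb1a-deficient r4, 5.36, 4.15 and 5.95 in normal r4 and 0.886, 0.925 and 0.994 in normal r2. It had no overlap with r2 and a difference of 1.96 ± 0.37 (SE, adjusted p = 0.0542), or with the block 2.24, adjusted p = 0.00553. Also listed for r4, fgf3 and tbx20 were below the median on all 9 arrays.

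Genes of the otic placode and vesicle made up the list with the most increases. Of 29 measured, 8 rose and 0 fell, where 0.382% and 0.173% of all probes did. Their median difference was 0.73, beside -0.07 for all probes, and in normal r4 it was 0.69. The list median within experiments was 0.46 in experiment 2 and 0.16 in experiment 3. With the block 8 rose and msx3 fell, while a second msx3 probe differed by 0.18 and missed the threshold (adjusted p = 0.648 with the block). The count was 7 without Hoxb1a-deficient r4 replicate 1, 5 without Hoxb1a-deficient r4 replicate 2, 5 without normal r2 replicate 2, and 4 without normal r2 replicate 3a or 3b.

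The gene for otopetrin 1, otop1, which is needed to form otoliths, measured 19.3, 8.86 and 7.30 in Hoxb1a-deficient r4, 28.8, 9.35 and 11.1 in normal r4 and 0.763, 0.680 and 0.724 in normal r2. All r2 arrays were below the median and both r4 groups far above it. The difference from r2 was 3.90 ± 0.45 (SE, adjusted p = 0.00393), and between the r4 groups it was -0.42 (95% interval -1.41 to 0.57). The placode transcription factor gene dlx4b measured 22.1, 15.4 and 11.6 in Hoxb1a-deficient r4, 38.0, 11.2 and 20.5 in normal r4 and 1.34, 1.54 and 1.04 in normal r2, and its difference was 3.62 ± 0.41 (SE, adjusted p = 0.00384). Its neighbour in the gene table, dlx3b, which acts with it in otic induction, measured 18.9, 8.22 and 11.1 in Hoxb1a-deficient r4, 18.4, 5.21 and 16.7 in normal r4 and 1.28, 1.47 and 1.64 in normal r2. Neither gene overlapped between Hoxb1a-deficient r4 and r2, and the dlx3b difference was 3.04 ± 0.46 (SE, adjusted p = 0.0162). A second dlx3b probe, below the median on all arrays, differed by -0.18.

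The claudin gene cldnj, also needed for otoliths, measured 4.99, 6.82 and 4.32 in Hoxb1a-deficient r4, against 0.695, 0.718 and 0.746 in normal r2. It lay above r2 on every array, with a difference of 2.87 ± 0.28 (SE, adjusted p = 0.00135). The placode transcription factor gene six4b measured 21.4, 12.0 and 8.27 in Hoxb1a-deficient r4, against 1.76, 2.18 and 1.76 in normal r2, a difference of 2.76 ± 0.42 (SE, adjusted p = 0.0155). The placode gene eya1, for a transcriptional coactivator with phosphatase activity, measured 19.3, 13 and 9.38 in Hoxb1a-deficient r4, against 2.62, 3.35 and 2.74 in normal r2. Its difference of 2.2 ± 0.40 (SE, adjusted p = 0.0421) missed the threshold whichever 1 of the 6 arrays was left out (adjusted p = 0.0574 to 0.213). A paralogue, eya4, was in no list and rose too, at 4.38, 5.38 and 8.44 in Hoxb1a-deficient r4, against 1.29, 1.16 and 1.19 in normal r2, or 2.27 ± 0.30 (SE, adjusted p = 0.00871). The zinc finger gene gata3, expressed in the ear and in hindbrain neurons, measured 7.51, 5.30 and 3.38 in Hoxb1a-deficient r4, against 0.870, 0.766 and 0.716 in normal r2. All r2 values were below the median, and the difference was 2.71 ± 0.38 (SE, adjusted p = 0.0104).

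Other otic markers did not pass. The otic factor genes pax8 and sox9a were below the median on all arrays, and pax2a differed by 0.73 ± 0.56 (SE, adjusted p = 0.996). The summed level of the otic list was 421, 220 and 181 in Hoxb1a-deficient r4, against 94.5, 211 and 206 in normal r2, which overlap. The highest of these sums is that of replicate 1, from the experiment that stood apart and held no r2. In bulk samples fewer cells of a type and less RNA per cell cannot be told apart. What part the amount of otic tissue in the slices had in these differences was not tested.

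Genes of surface epithelia were also among the increases. Of 19 skin genes measured, 5 rose and 0 fell, where 0.382% and 0.173% of all probes did, with a median difference of 0.85, beside 0.82 in normal r4, and with the block, where 0.875% of all probes rose, cldnb rose as well. The list median was 0.91 in experiment 2 and 0.33 in experiment 3, and the count was 3 without Hoxb1a-deficient r4 replicate 2 or without normal r2 replicate 3b. The tight junction gene cldn7b, which is in the otic list too, measured 50.0, 39.2 and 16.2 in Hoxb1a-deficient r4, 78.1, 15.2 and 31.6 in normal r4 and 2.05, 1.23 and 1.35 in normal r2. It had the largest difference among named genes, 4.39 ± 0.57 (SE, adjusted p = 0.00789), and a second cldn7b probe, below the median on all arrays, differed by -0.07. The tetraspanin gene cd9b measured 27.0, 36.7 and 24.5 in Hoxb1a-deficient r4, 32.1, 18.7 and 16.2 in normal r4 and 2.04, 1.48 and 1.57 in normal r2, and its difference was 4.11 ± 0.29 (SE, adjusted p = 0.000213). In both genes each r4 array lay above each r2 array.

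The epithelial adhesion gene epcam measured 15.2, 12.3 and 8.02 in Hoxb1a-deficient r4, against 1.08, 1.24 and 0.831 in normal r2, a difference of 3.47 ± 0.45 (SE, adjusted p = 0.00838). The claudin gene cldn3c measured 10.0, 6.94 and 5.98 in Hoxb1a-deficient r4, against 1.11, 0.526 and 0.649 in normal r2, or 3.37 ± 0.49 (SE, adjusted p = 0.0126). The protease inhibitor gene spint2 measured 6.01, 9.44 and 10.8 in Hoxb1a-deficient r4, against 1.1, 0.880 and 0.880 in normal r2, or 3.16 ± 0.25 (SE, adjusted p = 0.0005). None of these overlapped between the groups. Skin markers differed among themselves: krt5 and cdh1 were below the median on all arrays. The keratin gene krt4 measured 3.00, 1.91 and 0.870 in Hoxb1a-deficient r4, against 0.953, 0.780 and 0.722 in normal r2, and the basal skin factor tp63 2.57, 2.56 and 1.24 in Hoxb1a-deficient r4, against 1.14, 0.933 and 1.05 in normal r2. Neither passed (adjusted p = 0.938 and 0.857). The summed level of the skin list was 190, 249 and 138 in Hoxb1a-deficient r4, against 59.5, 68.3 and 38.2 in normal r2, which did not overlap. Sums of other lists did not overlap either. Floor plate and notochord genes summed to 136, 137 and 85.1 in Hoxb1a-deficient r4, against 58.3, 68.1 and 54.7 in normal r2. Sums of Hox group 3 genes, of cranial ganglion genes and of r3, r5 and r6 genes were also higher without overlap, and that of neural crest genes was lower. Apart from the floor plate and notochord list, each of these lists, the skin list included, holds genes past the test. Those genes enter the sum, so its lack of overlap is not a result of its own. Among single probes the groups did not overlap for 10.5%. What part the amount of skin in the slices had was not tested.

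**Figure D3:**
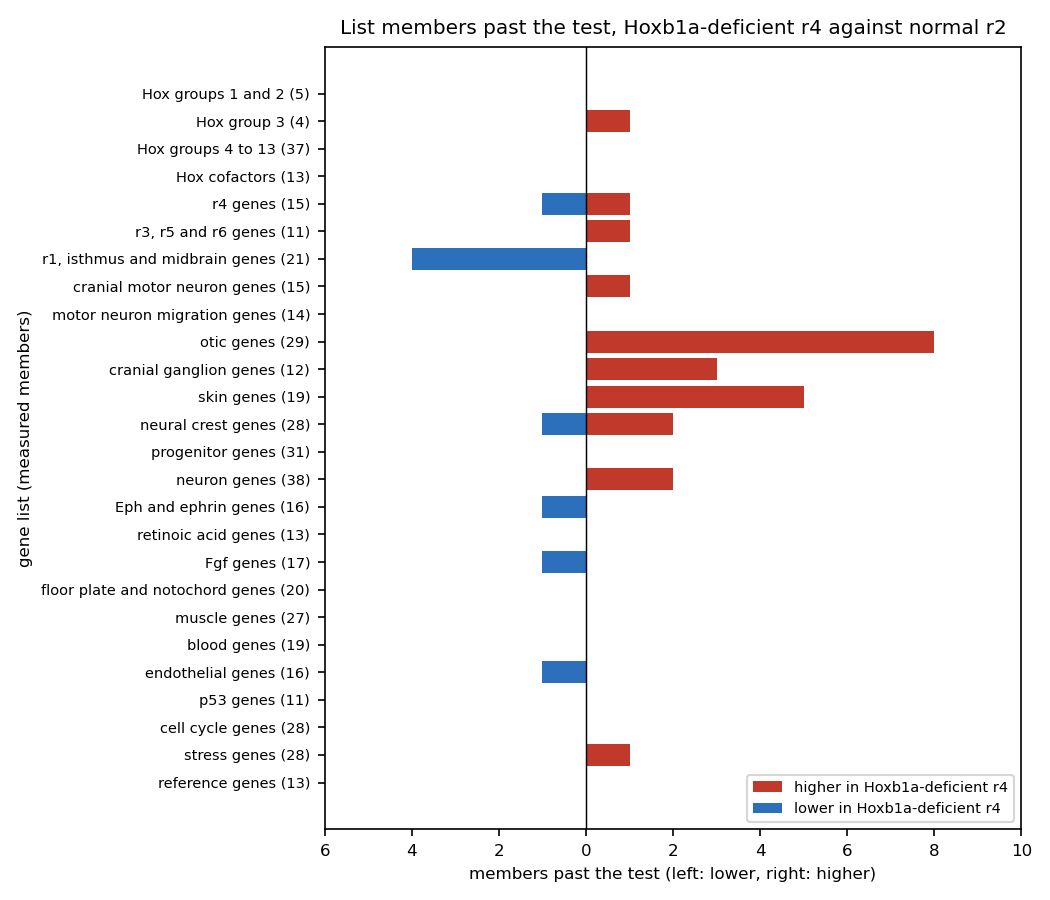
Members of each gene list past limma's test in Hoxb1a-deficient r4 against normal r2 (bars to the right rose, bars to the left fell, and the number measured is in brackets). The otic list has 8 genes that rose, the skin list 5, and the r1, isthmus and midbrain list 4 that fell.

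Further epithelial genes outside the lists rose. The splicing regulator gene esrp1, which directs splicing in epithelia, measured 10.0, 6.74 and 5.45 in Hoxb1a-deficient r4, against 0.985, 0.906 and 0.963 in normal r2, a difference of 2.91 ± 0.34 (SE, adjusted p = 0.00393). The desmosome gene pkp1b differed by 1.90 ± 0.29 (SE, adjusted p = 0.0155), although a second pkp1b probe differed by -0.23 and missed the threshold. The gene lsr, for a protein of tricellular junctions, differed by 1.85 ± 0.34 (SE, adjusted p = 0.0421). The named genes with the largest differences from r2 also included ahcyl1, a regulator of inositol trisphosphate receptors, at 52.9, 48.0 and 30.4 in Hoxb1a-deficient r4, 66.2, 22.3 and 45.5 in normal r4 and 1.96, 2.9 and 2.29 in normal r2. It had no overlap, and its difference was 4.18 ± 0.38 (SE, adjusted p = 0.000965). The calcineurin regulator gene rcan3 measured 7.36, 6.39 and 6.67 in Hoxb1a-deficient r4, against 0.846, 0.873 and 0.947 in normal r2, or 2.94 ± 0.27 (SE, adjusted p = 0.000965). The glycosyltransferase gene b3gnt7l measured 20.3, 13.6 and 8.46 in Hoxb1a-deficient r4, against 1.08, 1.09 and 1.08 in normal r2, or 3.62 ± 0.45 (SE, adjusted p = 0.00695). The phospholipase C gene plcd1b differed by 2.97 ± 0.39 (SE, adjusted p = 0.00846), and the zinc finger gene znf385a by 3.04 ± 0.45 (SE, adjusted p = 0.0153).

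Other genes outside the lists rose as well. The matrix gene tnn (tenascin N) measured 38.1, 40.1 and 20.4 in Hoxb1a-deficient r4, against 8.27, 6.49 and 3.45 in normal r2, with no overlap, and differed by 2.47 ± 0.46 (SE, adjusted p = 0.0473). The proline transporter gene slc6a7 differed by 2.26 ± 0.37 (SE, adjusted p = 0.0258), the insulin-like growth factor binding gene igfbp3 by 2.02 ± 0.32 (SE, adjusted p = 0.0184), and rbm38, an RNA-binding protein gene, by 1.71 ± 0.29 (SE, adjusted p = 0.0292). A second igfbp3 probe, below the median on all arrays, differed by 0.13. Differences of lmo7a, efhd1, tent5ba, stard14 and rnf128a were 2.27, 2.24, 1.55, 1.44 and 1.55, all past the threshold. The calls of lmo7a, rnf128a, tnn and lsr were lost whichever 1 of the 6 arrays was left out.

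Of 12 cranial ganglion genes, neurod1, six4b and eya1 rose, and of 38 neuron genes neurod1 and gata3 did, where 0.382% of all probes rose. The genes six4b, eya1 and gata3 are in the otic list too. Of the ganglion genes 0 passed without Hoxb1a-deficient r4 replicate 2 or without normal r2 replicate 2, 3a or 3b, and of the neuron genes 0 passed without Hoxb1a-deficient r4 replicate 2 or normal r2 replicate 3a or 3b and 1 without normal r2 replicate 2. The neurogenic factor gene neurod1 measured 61.9, 53.3 and 18.4 in Hoxb1a-deficient r4, 69.4, 35.5 and 37.6 in normal r4 and 6.1, 4.94 and 5.58 in normal r2. Its Hoxb1a-deficient r4 values lay above all r2 values, and the difference was 2.83 ± 0.43 (SE, adjusted p = 0.0165). With the block the neuron genes snap25b and stmn2a fell (-1.80, adjusted p = 0.00302, and -1.33, adjusted p = 0.00339). Of 15 genes of cranial motor neurons 1 rose, slc18a3a, which encodes the transporter that fills synaptic vesicles with acetylcholine. It measured 2.51, 2.84 and 2.58 in Hoxb1a-deficient r4, 3.34, 3.10 and 4.43 in normal r4 and 0.944, 0.712 and 0.696 in normal r2, a difference of 1.77 ± 0.23 (SE, adjusted p = 0.00764), and missed the threshold without normal r2 replicate 3a or 3b. The motor neuron factor isl1a measured 12.1, 7.90 and 4.2 in Hoxb1a-deficient r4, against 6.74, 7.20 and 7.33 in normal r2, which overlap. Of 14 genes of motor neuron migration 0 passed, prickle1b among them.

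The decreases included genes of the midbrain and isthmus. Of 21 measured genes of r1, isthmus and midbrain, 4 fell and 0 rose, where 0.173% and 0.382% of all probes did, and with the block, where 1.34% of all probes fell, en2a fell as well. The count was 2 without Hoxb1a-deficient r4 replicate 2, and 1 without Hoxb1a-deficient r4 replicate 3, normal r2 replicate 3a or normal r2 replicate 3b. The list median was -0.39, beside -0.07 for all probes and -0.23 in normal r4. The summed level of the list was 192.4, 159.3 and 145.6 in Hoxb1a-deficient r4, against 200.4, 213.0 and 191.7 in normal r2, which overlap. The marker pax2a, given above with the otic markers, also served as a midbrain and isthmus marker. Its difference went the other way and missed the threshold. The midbrain factor gene otx2b measured 0.905, 1.19 and 0.817 in Hoxb1a-deficient r4, 0.762, 1.02 and 1.48 in normal r4 and 5.09, 11.7 and 21.2 in normal r2. Both r4 groups lay near the array median and below every r2 array. Its difference was -3.50 ± 0.46 (SE, adjusted p = 0.00815), with -2.10 in experiment 2 and -4.27 in experiment 3. The isthmus signal gene fgf8a measured 0.920, 1.56 and 0.844 in Hoxb1a-deficient r4, 1.44, 0.984 and 0.802 in normal r4 and 3.91, 5.69 and 4.80 in normal r2. No Hoxb1a-deficient r4 array reached the lowest r2 value, and the difference was -2.16 ± 0.31 (SE, adjusted p = 0.0118).

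The ephrin gene efna5a measured 14.3, 11.4 and 9.37 in Hoxb1a-deficient r4, against 34.0, 66.9 and 52.5 in normal r2, a difference of -2.09 ± 0.31 (SE, adjusted p = 0.0141), and a second efna5a probe, below the median on all arrays, differed by -0.30. The Fgf signal modulator gene cnpy1 measured 1.57, 0.942 and 0.656 in Hoxb1a-deficient r4, against 3.06, 5.46 and 4.40 in normal r2, or -2.08 ± 0.39 (SE, adjusted p = 0.0496). The engrailed gene en2a measured 1.23, 0.934 and 1.02 in Hoxb1a-deficient r4, against 1.39, 2.79 and 2.65 in normal r2, and its difference was -1.04 ± 0.32 (SE, adjusted p = 0.483) without the block. What part midbrain or isthmus tissue in the r2 slices had was not tested.

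Of 28 neural crest genes, gch2 fell and dlx3b and prdm1a rose, where 0.173% and 0.382% of all probes did. The gene dlx3b is in the otic list too. The count of 3 was 1 without normal r2 replicate 3a or 3b and 2 without any other 1 of the 6 arrays. With the block, where 1.34% of all probes fell and 0.875% rose, atic and fli1 fell and dlx5a rose as well. The gene gch2, for an enzyme that begins pteridine synthesis in pigment cells, measured 0.594, 0.845 and 0.788 in Hoxb1a-deficient r4, 0.660, 0.824 and 0.731 in normal r4 and 4.31, 3.72 and 3.37 in normal r2. Both r4 groups were below the median on all arrays, and the difference was -2.36 ± 0.22 (SE, adjusted p = 0.000965). The ubiquitin ligase gene pdzrn3b measured 2.63, 5.13 and 4.63 in Hoxb1a-deficient r4, 3.82, 7.07 and 4.83 in normal r4 and 19.2, 28.9 and 18.4 in normal r2, a difference of -2.45 ± 0.33 (SE, adjusted p = 0.00871). The vascular growth factor gene vegfab measured 2.0, 1.77 and 1.89 in Hoxb1a-deficient r4, 3.39, 2.32 and 4.24 in normal r4 and 4.56, 10.3 and 9.18 in normal r2. Its difference from r2 was -2.0 ± 0.33 (SE, adjusted p = 0.0259), and of 16 endothelial genes 1, vegfab, fell, which it did without normal r2 replicate 2 but not without any other 1 of the 6 arrays. The scaffold gene iqgap2 differed by -1.42 ± 0.26 (SE, adjusted p = 0.0421), si:ch211-269c21.2 by -1.36 ± 0.22 (SE, adjusted p = 0.0258) and zgc:113363 by -1.51 ± 0.28 (SE, adjusted p = 0.0473). The calls of prdm1a, iqgap2 and si:ch211-269c21.2 were lost whichever 1 of the 6 arrays was left out.

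A few called probes stood apart from normal r4 as well as from r2, and these were picked after their values were seen. The metalloproteinase inhibitor gene timp2b measured 9.05, 11.7 and 9.83 in Hoxb1a-deficient r4, 6.0, 2.72 and 3.80 in normal r4 and 1.99, 2.55 and 2.9 in normal r2. Hoxb1a-deficient r4 was above both other groups on every array. Its difference from r2 was 2.05 ± 0.30 (SE, adjusted p = 0.013), and from normal r4 it was 1.35 (95% interval 0.70 to 2.01), which missed the threshold across all probes. Unnamed probe 15255 measured 4.30, 2.96 and 4.75 in Hoxb1a-deficient r4, 1.93, 0.896 and 1.78 in normal r4 and 1.11, 0.961 and 1.19 in normal r2, and its difference from r2 was 1.86 ± 0.32 (SE, adjusted p = 0.0302). Unnamed probe 4686 measured 15.3, 10.4 and 8.98 in Hoxb1a-deficient r4, 53.5, 29.6 and 47.1 in normal r4 and 39.0, 42.2 and 32.9 in normal r2. All Hoxb1a-deficient r4 values lay below those of both other groups. The difference from r2 was -1.75 ± 0.29 (SE, adjusted p = 0.0258), and with the block it passed between the r4 groups (adjusted p = 0.0193). Of the 90 probes, 4 that rose and 4 that fell had an unadjusted p under 0.05 between the r4 groups in limma's test. Of all 16227 probes 82 did. The 90 were chosen on the same Hoxb1a-deficient r4 arrays that enter this comparison, which by itself favours such differences. Their share is therefore not a result of its own.

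Several lists held no gene past the test: 27 muscle, 19 blood, 11 p53, 28 cell cycle, 31 progenitor, 20 floor plate and notochord and 13 retinoic acid genes, and with the block gfap fell among the progenitor genes and raraa rose among the retinoic acid genes. The notochord and floor plate signal gene shha measured 25.7, 10.0 and 12.6 in Hoxb1a-deficient r4, against 7.56, 6.72 and 4.95 in normal r2, a difference of 1.23 (95% interval 0.01 to 2.45, adjusted p = 0.996), and the progenitor factor gene pax6a differed by 3.09 (95% interval 0.73 to 5.45, adjusted p = 0.679). In normal r2 pax6a varied widely, at 7.88, 0.452 and 4.09 on replicates 2, 3a and 3b. Its difference was 0.93 in experiment 2, and in experiment 3 it was 4.85 against 3a and 1.67 against 3b. The cell cycle kinase gene cdk1 differed by 0.61 (95% interval -0.70 to 1.91, adjusted p = 0.996), the retinoic acid binding gene crabp2a by 1.04 (95% interval -0.20 to 2.28, adjusted p = 0.996) and the posterior Hox gene hoxb5a by -1.69 (95% interval -3.25 to -0.13, adjusted p = 0.947). Among the cofactor genes pbx3b differed by -1.42 (95% interval -2.74 to -0.10, adjusted p = 0.955) and meis1a by 0.95 (95% interval -0.63 to 2.52, adjusted p = 0.996). Among the muscle genes mef2ca differed by -1.5 (95% interval -3.63 to 0.62, adjusted p = 0.996), and its arrays overlapped. The muscle markers myod1, mylpfa and tnnt3a, the blood markers gata1a and alas2 and the endothelial marker kdrl were below the median on all arrays. Summed muscle levels were 61.7, 47.6 and 49.3 in Hoxb1a-deficient r4, against 49.9, 73.2 and 58.1 in normal r2, which overlap. The gene mdm2, which p53 activates, measured 2.14, 1.5 and 1.28 in Hoxb1a-deficient r4, against 1.2, 0.970 and 1.12 in normal r2, a difference of 0.55 (95% interval 0.01 to 1.1, adjusted p = 0.996). Of 16 Eph and ephrin genes efna5a fell, and of 17 Fgf genes fgf8a fell, with fgfr1a and fgfr4 lower and fgfbp1b higher only with the block. Both calls were lost without Hoxb1a-deficient r4 replicate 3 or normal r2 replicate 3a or 3b, and that of efna5a also without Hoxb1a-deficient r4 replicate 2. Of 13 reference genes 0 passed, and tuba1b fell with the block. Of 28 stress genes 1, egr2b, rose, and the list median was 0.87 in experiment 2 and -0.05 in experiment 3.

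**Figure D4:**
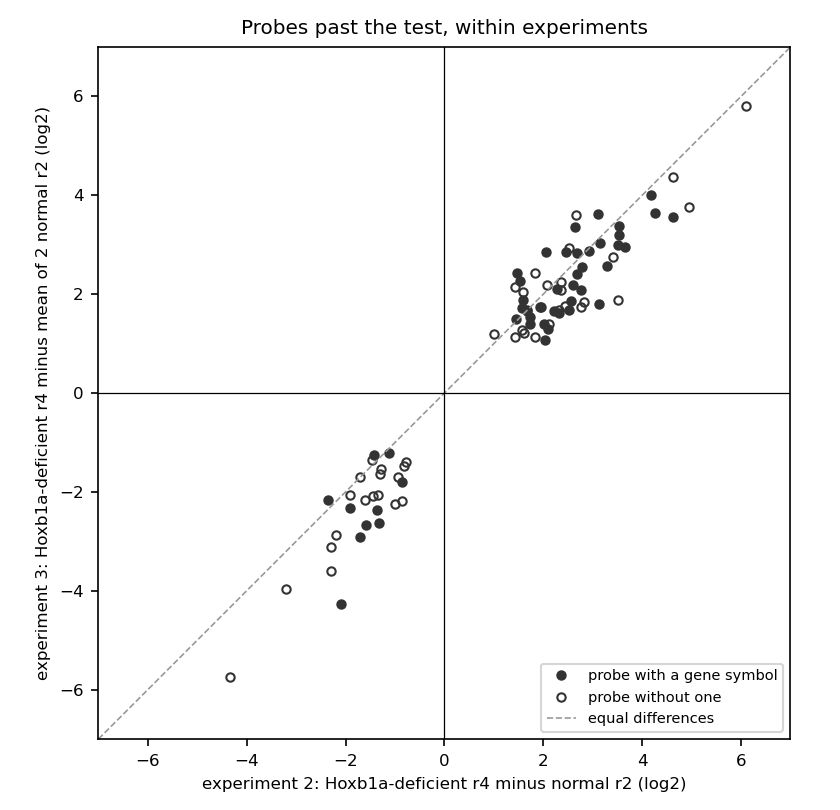
Log2 differences between Hoxb1a-deficient r4 and normal r2 of the 90 probes past the test, in experiment 2 (horizontal axis) and in experiment 3 against the mean of both r2 samples (vertical axis), with a dashed line for equal differences. All 90 points lie in the quadrants of equal sign, which the lack of overlap between the groups fixes in advance. The medians of the 62 that rose are 2.41 in experiment 2 and 2.10 in experiment 3.

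Within experiments the probes that rose had a median of 2.41 in experiment 2 and 2.10 in experiment 3, and those that fell of -1.45 and -2.16. A fit with a replicate block for the experiment called 359 probes (2.21%), 142 higher (0.875%) and 217 lower (1.34%), and these included all of the 90 in the same direction. In the fit without the block the number called, 90, was lower whichever 1 of the 6 arrays was left out. The number was 63 without Hoxb1a-deficient r4 replicate 1, 35 without replicate 2, 52 without replicate 3, 56 without normal r2 replicate 2, 31 without 3a and 27 without 3b. Leaving out an array also leaves fewer arrays in its group, and this was not separated from the weight of that array. Of the 90, 25 (18 that rose and 7 that fell) passed whichever 1 of these 6 arrays was left out. The 14 named genes among them were cldn7b, ahcyl1, cd9b, otop1, dlx4b, b3gnt7l, spint2, plcd1b, rcan3, esrp1, cldnj, hoxa3a, gch2 and otx2b.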

How the data were processed

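RNA of 9 samples, each pooled from transverse slices around a rhombomere, was measured on oligonucleotide arrays. The comparison used 3 arrays of Hoxb1a-deficient r4 and 3 of normal r2, grouped by sample title. The values that the authors deposited were read as a ratio of each spot's brightness to a per-array constant, because every column's median is 1.00 to 1.01. The scanner, the background treatment and how arrays were normalized were not stated in the labels, and detection flags were not used. Of 16399 rows, 172 spots of 1 actb2 accession were left out as repeated controls. The other 16227 probes were named through the platform annotation, updated through Entrez gene IDs for 6010 rows in a later gene table used for names only: 5907 have 1 symbol, 74 several and 10246 none. For a gene with several probes the brightest stands.

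Log2 values without a pseudocount were fitted with limma 3.58.1 in R 4.3.3 (group means over 9 arrays, 6 residual degrees of freedom, eBayes, two-sided) and adjusted by Benjamini-Hochberg over all probes, with a threshold of 0.05. The fit was tested on simulated data with independent arrays, so that test does not cover the experiments that the real samples share. Equal replicate numbers mark a shared experiment, per the series' design text, so the samples are paired. The 90 calls come from the fit without a block. Deviations from the group means of same-experiment arrays correlated with 0.52 (experiment 2), -0.12 (Hoxb1a-deficient r4 3 and r2 3a) and 0.25 (with 3b), and those of different experiments with -0.46 to 0.35. The fit with the experiment as a block, within-experiment values, other scales, normalizations, samples, filters and each array left out were alternatives.

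The arrays compared and the 26 gene lists were chosen with earlier results of these data known. Named by rule were hoxb1a, prickle1b, list members past the test, 2 members of each list without one, and, in each direction, the 15 called probes of largest change that had 1 symbol, non-overlapping groups and a mean above the array median. Another 35 were added after their values were seen, among them cxcl12b, hoxa2b, timp2b, probes 15255 and 4686, list members past only the blocked test, and the other genes past the test.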

Additional observations from a re-analysis of the deposited data

How the results depend on the processing

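On log2 values without a block 90 probes passed (62 higher, 28 lower). The count was 147 with experiments 2 and 3 only and the replicate block, 359 with the replicate block, 541 with the block and quantile normalization, 428 with the experiment as a random replicate block, 186 with quantile normalization, 41 with log2(value + 1), 5 with log2(value + 16) and 30 with r2 samples 3a and 3b averaged. It was 128 with experiments 2 and 3 only and no block, and 88 to 92 with arrays centred, dim probes left out, the 6 arrays alone or a trended robust prior. Without each of the 9 arrays in turn it lay between 27 and 113. The share that rose was 68.9% of the calls, 58.6% with quantile normalization and 39.6% with the replicate block, so the balance of increases and decreases depended on the scaling and on the block. The count of list genes past the test, 23 of 445, was 40 with the replicate block and 9 to 20 without each of the 6 arrays in turn. Of all probes 0.555% passed, and 2.21% with the replicate block. The lists were chosen with earlier results of these data known, so these counts are not a result of their own. The sign of fgfbp1b turned, at -0.28 without the block, 0.65 with the replicate block and 0.76 with the block and quantile normalization. No named gene past the test turned its sign in these alternatives. A small difference that missed the threshold, such as that of cxcl12b, can turn its sign when 1 array is left out. The cause of these changes was not tested. Arrays without detection flags, dim levels below the median and only 2 experiments with r2 limit what the folds show.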
